A study of Rattus norvegicus with 6 samples.

Results

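The rows described here are the mature arms of miR-128, miR-139, miR-153, miR-190a, miR-190b, miR-204, miR-211, miR-218a, miR-218b and miR-598, most of which lie inside genes with roles in neurons. They were taken by name from the table, with every arm and copy kept, and came to 19 of 1289 rows. Of these, 16 passed the filter on low counts and were tested among 628 rows. The libraries are of small RNA from PC12, a rat adrenal pheochromocytoma line that resembles neurons when it differentiates. In the labels, 3 libraries carry the group name EC and 3 carry EN, neither abbreviation is explained, and no treatment, dose or time is given. The series title speaks of endothelial cell exosomes engineered with Netrin-1, a secreted guidance protein for axons, and of peripheral nerve repair. Whether the libraries of a group stem from separate cultures is not said, and the p-values therefore cover only the spread between these libraries, which may be technical.

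An intronic miRNA is carried in the primary transcript of its host gene. The Drosha and Dicer enzymes cut its hairpin out of that transcript into a 5p and a 3p arm, of which one usually dominates as the guide strand. Bases 2 to 8 of the mature strand, the seed, largely set which mRNAs it represses. In neurons, miR-128 and miR-218 are known as abundant regulators of excitability, miR-218 being typical of motor neurons, while miR-204 is best known from the eye and the choroid plexus. A host and its miRNA can be transcribed together, and no host mRNA was measured in these libraries.

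Host genes were read from the RefSeq gene table of the GRCr8 assembly, which is not the build named for these data and was used only for which gene lies inside which. The hairpin Mir128-1 lies in R3hdm1, which encodes a protein with an RNA-binding R3H domain, and Mir128-2 lies in Arpp21, a cAMP-regulated phosphoprotein gene of the striatum. Mir139 lies in Pde2a, a phosphodiesterase gene, and Mir190 lies in Tln2, whose talin links integrins to actin. Mir153 lies in Ptprn2, which encodes a membrane protein of dense core vesicles. Mir204 lies in Trpm3 and Mir211 in Trpm1, both cation channel genes. Mir218-1 lies in Slit2 and Mir218-2 in Slit3, which encode secreted guidance ligands of Robo receptors, and Mir598 lies in Xkr6. Whether the strands match was not given for Mir218-1 in Slit2 and Mir598 in Xkr6. Mir190b only overlaps the edge of Tpm3, a tropomyosin gene, so it was not placed inside a host.

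The mature sequences of the arms that the results turn on are shown with the seed in capitals, 5′ to 3′, because seeds and near-identity decide which rows can share targets or reads. All come from RefSeq (GRCr8), which gave a sequence for 16 of the 19 rows.
rno-miR-128-3p: uCACAGUGaaccggucucuuu
rno-miR-139-5p: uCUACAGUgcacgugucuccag
rno-miR-153-3p: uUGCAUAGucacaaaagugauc
rno-miR-190a-5p: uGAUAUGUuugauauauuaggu
rno-miR-190b-5p: uGAUAUGUuugauauuagguu
rno-miR-204-5p: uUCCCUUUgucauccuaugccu
rno-miR-211-5p: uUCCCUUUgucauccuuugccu
rno-miR-218a-5p: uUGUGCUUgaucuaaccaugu
rno-miR-218b: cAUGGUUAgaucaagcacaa

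The 16 sequences held 13 distinct seeds. A seed was shared by 3 pairs: miR-204-5p with miR-211-5p, miR-190a-5p with miR-190b-5p, and the 5p arms of both miR-128 copies. None of the other known rows with a sequence carried one of these seeds. Counted from 1 at the 5′ end, miR-204-5p and miR-211-5p differ by 1 substitution, A17U (the first letter is the base of miR-204-5p). MiR-190a-5p and miR-190b-5p share their first 15 bases. MiR-218b is not a paralog of miR-218a: its 20 bases are the reverse complement of bases within the 21 of miR-218a-5p, and its gene, Mir3565, lies on the opposite strand of Mir218-1. No source used here gives the strand rule of the counting, so how many reads of the miR-218b row came from miR-218a-5p cannot be told. The rows were counted very unequally, with miR-218b at 0.894 to 1.29 percent of their sum over the libraries.

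The hairpins of both miR-128 copies are shown with their mature arms in capitals, because the 3p arm is the same in both and only the 5p arm tells the copies apart. The 5p arms differ at 5 positions.
Mir128-1: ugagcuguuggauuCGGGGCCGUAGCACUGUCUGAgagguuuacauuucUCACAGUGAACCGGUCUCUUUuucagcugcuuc
Mir128-2: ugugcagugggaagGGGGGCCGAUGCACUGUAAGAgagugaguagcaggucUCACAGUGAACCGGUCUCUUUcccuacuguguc

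The libraries held 4521694 to 6554639 miRNA counts, more in each EC library than in each EN library, and these counts made up 30.9 to 32.6 percent of the library total implied by the deposited RPM in EC and 24.99 to 26.9 percent in EN. Levels below are in CPM, relative to the miRNA counts of the library, after TMM scaling, a correction for composition. Scaling to the implied totals moved the median log2 fold change of all rows from 0.02 to -0.30. The 19 rows took 3.09 percent of all miRNA counts in EC replicate 2 and 4.46 to 4.70 percent in the other 5 libraries. Of the neuroendocrine markers, all 5 were detected, and their sum was higher in each EN library (1254 to 1511 CPM) than in each EC library (992 to 1158 CPM). Most of it was miR-7a-5p, at 974 to 1134 CPM in EC and 1235 to 1489 CPM in EN, while miR-375-3p lay at 1.99 to 3.19 CPM. The log2 fold change was positive for miR-7a-5p (0.35), miR-182 (0.15) and miR-375-3p (0.05). It was negative for miR-183-5p (-1.60), which was at 0 in EN replicates 2 and 3, and for miR-96-5p (-0.79). None of the 5 passed edgeR's test. The neuronal miR-9a-5p lay at 1221 to 1640.3 CPM in EC and 1002 to 1254 CPM in EN, while the neuron-defining miR-124-3p was near 0, at 0.154 to 1.10 CPM. Summed markers of endothelial cells (2 of 2 rows) lay at 1064 to 1144 CPM in EC and 1086 to 1229 CPM in EN, those of blood (5 of 5) at 8.34 to 12.5 and 21.0 to 32.6 CPM, and those of glia (2 of 2) at 176 to 200.5 and 87.1 to 121.02 CPM. Muscle markers (3 of 3) summed to 1.76 to 30.3 CPM in EC and 1.75 to 2.41 CPM in EN. The upper EC value came from miR-206-3p in EC replicate 1, at 28.9 CPM against 1.44 and 3.21 CPM in EC replicates 2 and 3. The liver marker miR-122-5p lay at 5.96 to 9.74 CPM in EC and 8.23 to 14.4 CPM in EN. None of these 20 rows was at 0 in all libraries. Of them, miR-451-5p (blood) was called higher, and miR-338-3p (glia) and miR-126a-5p (endothelial) lower. The other blood rows lay at or below 2.16 CPM in each library and were not tested. The glial miR-219a-5p had a positive log2 fold change of 0.34 (adjusted p = 0.678 by edgeR), and the endothelial miR-126a-3p one of 0.07 (0.731). The part of these markers in the results below was not tested.

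In level, miR-204-5p stood far above the others, followed by miR-218a-5p, and among the 19 rows the ranges of this pair did not overlap with each other or with any other. MiR-204-5p, the 10th most abundant of all rows, measured 32497, 18376 and 34142 CPM in the EC libraries and 32612, 35139.9 and 29679.6 CPM in the EN libraries. EC replicate 2 was the lowest library, and the groups overlapped. MiR-153-3p and miR-128-3p came next, and their order differed between the groups. In EC, miR-153-3p (908 to 1320.2 CPM) lay above miR-128-3p (687 to 749 CPM) without overlap. In EN, miR-153-3p (707 to 912 CPM) lay below miR-128-3p (1119 to 1196 CPM) without overlap. From miR-211-5p down to miR-190a-5p, through miR-218b and miR-153-5p, neighbouring ranges overlapped, as did those among miR-598-3p, miR-139-5p and miR-190a-3p. The mature sequences are 20 to 23 bases long, so length plays little part in this order, and levels of different sequences are not corrected for how well each was cloned.

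**Figure D1:**
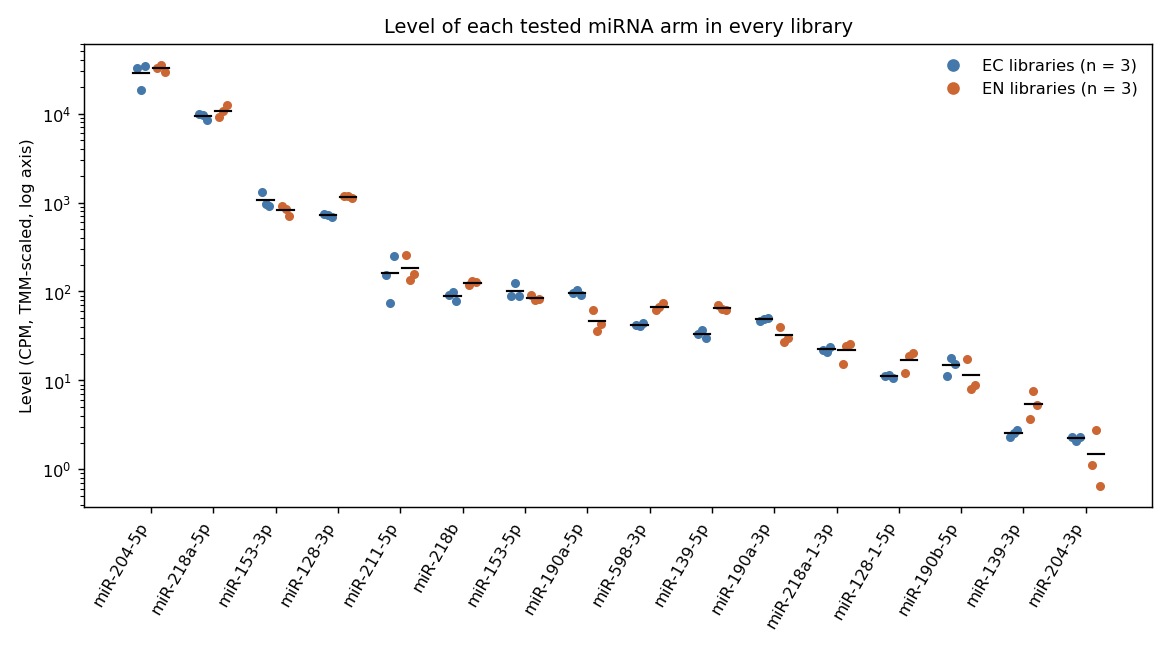
Level of each tested arm in every library, in TMM-scaled CPM on a log axis, with 3 EC and 3 EN points per arm and black bars at the group means. MiR-204-5p lies between 18376 and 35139.9 CPM, and the EC and EN points of miR-128-3p, miR-139-5p, miR-598-3p and miR-190a-5p do not overlap. Those of miR-218b, miR-128-1-5p, miR-139-3p and miR-190a-3p, which did not pass edgeR's test, do not overlap either.

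Between EC and EN, miR-128-3p, miR-139-5p and miR-598-3p rose and miR-190a-5p fell, at log2 fold changes between -1.05 and 0.98. Thus 4 of the 16 tested rows passed the test, 3 higher and 1 lower, where 3.98 percent of all 628 tested rows passed, 2.07 percent higher and 1.91 percent lower. With implied totals, 101 of the 619 rows tested in that setting passed, 13 higher and 88 lower. Of the 16 rows, 1 was then higher and 2 were lower. The EC and EN values did not overlap in 8 of the 16 rows, 6 with EN above and 2 with EN below, against 29.6 percent of all tested rows. The median log2 fold change of the 16 rows was 0.19, beside 0.02 for all rows, and it was -0.14 with implied totals. The rows were chosen with earlier results of these data known, so these counts are a description. In bulk RNA, fewer cells with a miRNA and less of it per cell cannot be told apart.

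MiR-128-3p, a brain-enriched miRNA made from both hairpins shown above, measured 749, 722 and 687 CPM in EC and 1169.6, 1196 and 1119 CPM in EN. Each EN library lay above each EC library, and the libraries of a group differed by little. The means were 719 ± 30.8 CPM for EC and 1162 ± 38.9 CPM for EN (SD, n = 3). MiR-128-3p thus rose by a log2 fold change of 0.69 (SE 0.10, adjusted p = 0.0177 by edgeR). In deposited RPM the EC values of 212 to 246 also lay below the EN values of 286 to 316, but with library totals implied by RPM the log2 fold change was 0.36 and the adjusted p 0.0848. The call also ended without EC replicate 3 (adjusted p = 0.0834), EN replicate 2 (0.0896) or EN replicate 3 (0.0778), while the log2 fold change stayed between 0.67 and 0.73 over the fits that left out 1 library each.

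The copy-specific 5p arms gave a view of which hairpin was read. MiR-128-1-5p, from the R3hdm1 hairpin, had 73, 72 and 70 counts in EC and 65, 83 and 93 in EN. MiR-128-2-5p, from the Arpp21 hairpin, had 0, 6 and 3 counts in EC and 0, 3 and 1 in EN. The Arpp21 copy was thus the lesser in each library. It made up 3.93 ± 3.85 percent of both 5p arms in EC libraries and 1.52 ± 1.79 percent in EN libraries (SD, n = 3; exact permutation test, two-sided, p = 0.5). The 95% Clopper-Pearson interval of a single library reached at most 15.995 percent, in EC replicate 2. In the libraries with 0 counts, EC replicate 1 and EN replicate 1, the limit set by 3 counts of the sum was 4.11 and 4.62 percent, and the Clopper-Pearson upper bound was 4.93 and 5.52 percent. MiR-128-1-5p itself measured 11.3, 11.5 and 10.7 CPM in EC and 12.0, 19.0 and 20.4 CPM in EN. The groups did not overlap, yet EN replicate 1 lay close to the EC libraries, and the log2 fold change of 0.62 (SE 0.24) did not pass edgeR's test (adjusted p = 0.178). Intervals here cover counting error only, and the shares of 5p arms need not equal those of the identical 3p arms.

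MiR-139-5p, which is carried by the phosphodiesterase gene Pde2a, measured 33.1, 36.6 and 30.1 CPM in EC and 70.5, 63.8 and 61.8 CPM in EN. All 3 EN libraries lay above all 3 EC libraries. MiR-139-5p rose by a log2 fold change of 0.98 (SE 0.15, adjusted p = 0.0187); it was 0.65 and still past the threshold with implied totals (adjusted p = 0.0412). The call ended without EC replicate 1 (adjusted p = 0.0667), EC replicate 3 (0.0955), EN replicate 2 (0.0781) or EN replicate 3 (0.0737). Over all 6 fits that left out 1 library, the log2 fold change was 0.91 to 1.08. The other arm, miR-139-3p, was counted 15, 16 and 18 times in EC and 20, 33 and 24 times in EN. These few counts scaled to 2.54 ± 0.217 and 5.50 ± 1.93 CPM (SD, n = 3), without overlap. MiR-139-3p had a log2 fold change of 1.10 (SE 0.33), close to that of the 5p arm, with an adjusted p of 0.1004 by edgeR.

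MiR-598-3p, from the Xkr6 locus, measured 42.2, 41.2 and 43.7 CPM in EC and 62.4, 66.3 and 74.0 CPM in EN. The EC libraries lay close together and below all EN libraries. The row rose by a log2 fold change of 0.67 (SE 0.14, adjusted p = 0.0471). Of the leave-one-out fits, the call held only without EN replicate 1 (adjusted p = 0.0473). It ended without EC replicate 1, 2 or 3 (adjusted p = 0.123, 0.0592 and 0.131) and without EN replicate 2 or 3 (0.106 and 0.176). Over all 6 of these fits, the log2 fold change was 0.60 to 0.73. It also ended with no filter (0.0734) and with implied totals, where the log2 fold change was 0.34 (adjusted p = 0.143). MiR-598-5p, the lesser arm of this hairpin, had 7, 3 and 6 counts in EC and 0, 2 and 1 in EN and was not tested.

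MiR-190a-5p, carried by the talin gene Tln2 and known to target the neuronal transcription factor NeuroD1, measured 95.9, 102.995 and 91.9 CPM in EC and 61.2, 35.7 and 43.2 CPM in EN. All EN libraries lay below all EC libraries, with EN replicate 1 the nearest. The EC mean of 96.9 ± 5.602 CPM stood against 46.7 ± 13.2 CPM in EN (SD, n = 3). This is a log2 fold change of -1.05 (SE 0.22, adjusted p = 0.0471). With implied totals it was -1.37 (adjusted p = 0.0138). Of the leave-one-out fits, the call held only without EN replicate 1 (-1.30, adjusted p = 0.0249). It ended without EC replicate 1, 2 or 3 (adjusted p = 0.137, 0.0718 and 0.131) and without EN replicate 2 or 3 (0.136 and 0.176), where the log2 fold change was -0.85 at its weakest. The 3p arm of the same hairpin, miR-190a-3p, measured 46.5, 49.2 and 49.9 CPM in EC and 40.3, 27.2 and 29.8 CPM in EN. Its groups did not overlap either, and its log2 fold change of -0.58 (SE 0.18) did not pass (adjusted p = 0.108). MiR-190a-3p did pass with implied totals (-0.90, adjusted p = 0.0289) and without EN replicate 1 (-0.77, adjusted p = 0.0416).

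**Figure D2:**
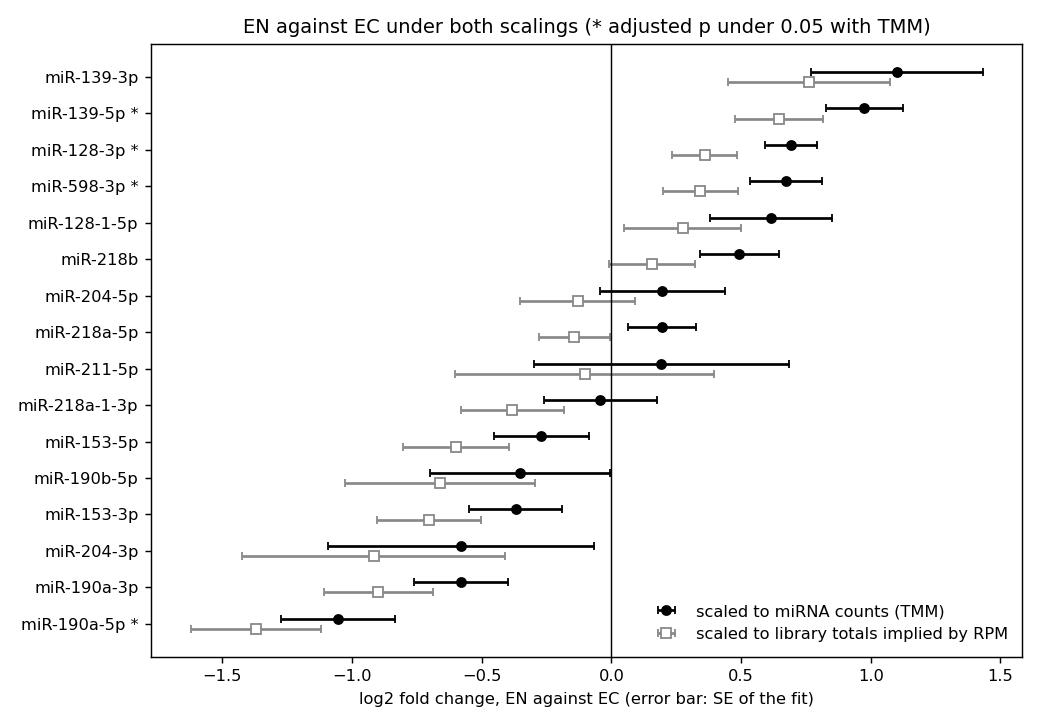
Log2 fold change of EN against EC for each tested arm, with SE of the fit as error bars, scaled to miRNA counts by TMM (filled) or to library totals implied by RPM (open). The asterisk marks the 4 arms with adjusted p under 0.05 with TMM, and the open symbols lie to the left, so that miR-128-3p moves from 0.69 to 0.36 while miR-190a-5p moves from -1.05 to -1.37.

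MiR-190b-5p, the seed-sharing relative of miR-190a-5p, measured 11.3, 17.9 and 15.1 CPM in EC and 17.6, 8.002 and 8.98 CPM in EN. EN replicate 1 was among the highest libraries, and the groups overlapped. Its log2 fold change was -0.35 (SE 0.35, adjusted p = 0.621). It was -0.80 without EN replicate 1 (adjusted p = 0.149), -0.11 without EN replicate 2, -0.15 without EC replicate 2 and -0.20 without EN replicate 3, and passed in none of these fits. As a share of both rows, miR-190b-5p made up 10.5, 14.8 and 14.1 percent in EC and 22.3, 18.3 and 17.2 percent in EN, with 95% Clopper-Pearson intervals from 8.34 to 26.6 percent. Each EN share lay above each EC share, with means of 13.1 ± 2.30 and 19.3 ± 2.67 percent (SD, n = 3). An exact permutation test (two-sided) gave p = 0.1, the smallest that 3 against 3 libraries allow. With both rows summed, the log2 fold change was -0.94 (SE 0.23) and the sum did not pass edgeR's test (adjusted p = 0.0676). The sum passed with DESeq2 (adjusted p = 0.00226), with no filter (0.0111), with implied totals (0.0227) and without EN replicate 1 (0.0296). MiR-190b-3p had 0 counts in all EC libraries and 2, 1 and 0 in EN, which at this depth is at the floor.

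Both arms of miR-153, a miRNA with mRNAs of synaptic vesicle proteins among its known targets, had negative log2 fold changes that did not pass. MiR-153-3p, the major arm, measured 1320.2, 960 and 908 CPM in EC and 912, 848 and 707 CPM in EN. EN replicate 1 lay just above EC replicate 3, so that the groups overlapped by those libraries. The log2 fold change was -0.37 (SE 0.18, adjusted p = 0.284), and -0.17 without EC replicate 1, the highest library. MiR-153-5p measured 88.5, 125.5 and 89.8 CPM in EC and 90.5, 79.6 and 81.9 CPM in EN. EC replicate 2 was highest for the 5p arm, whereas EC replicate 1 was highest for the 3p arm. For miR-153-5p the log2 fold change was -0.27 (SE 0.18, adjusted p = 0.449), and it was -0.06 without EC replicate 2. With implied totals the arms stood at -0.70 (3p, adjusted p = 0.0512) and -0.60 (5p, adjusted p = 0.0817).

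The ratio of counts of a pair of miRNAs within a library does not depend on how libraries are scaled. Such ratios were computed for a row with a positive and a row with a negative fold change, chosen after their values were seen, and are given with no test. Per count of miR-153-3p there were 0.567, 0.752 and 0.757 counts of miR-128-3p in EC and 1.28, 1.41 and 1.58 in EN. The ratio thus lay below 1 in EC and above 1 in EN. A ratio of 1 has no special meaning here, because levels of different sequences are not corrected for cloning. Per count of miR-190a-5p there were 0.345, 0.355 and 0.327 counts of miR-139-5p in EC and 1.15, 1.79 and 1.43 in EN. Again no library of one group reached the other, which already follows from the separation of both rows in opposite directions.

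**Figure D3:**
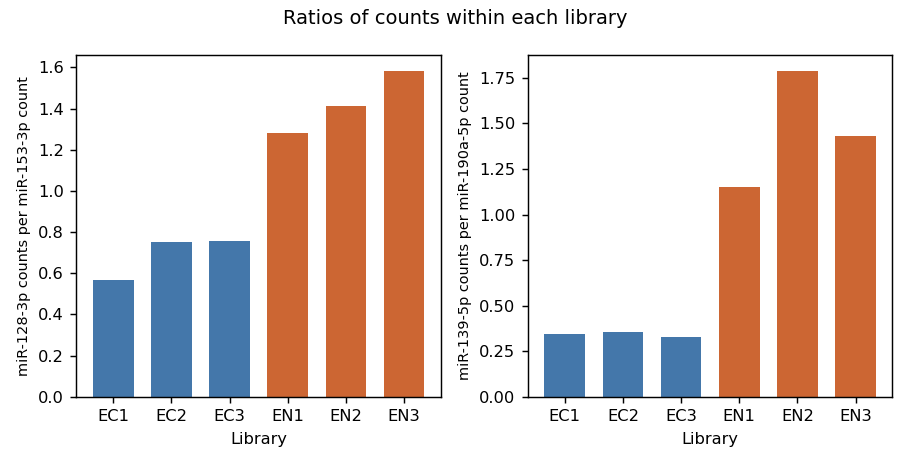
Counts of miR-128-3p per count of miR-153-3p (left) and of miR-139-5p per count of miR-190a-5p (right) in each library, as bars from 0. The EN bars (1.28 to 1.58 and 1.15 to 1.79) all stand above the EC bars (0.567 to 0.757 and 0.327 to 0.355).

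MiR-204-5p and miR-211-5p, which share a seed and lie in a pair of related channel genes, were not separated between the groups. For miR-204-5p the log2 fold change was 0.20 (SE 0.24, adjusted p = 0.689), and it turned to -0.0127 without EC replicate 2 and to -0.13 with implied totals. MiR-211-5p measured 155, 73.3 and 253 CPM in EC and 260, 135 and 156 CPM in EN. Its libraries spread more widely than those of the other rows above 20 CPM, with a coefficient of variation of 56.0 percent in EC and 36.5 percent in EN, and EC replicate 2 was the lowest for both rows. For miR-211-5p it was 0.19 (SE 0.49, adjusted p = 0.859), and it turned to -0.12 without EC replicate 2, -0.14 without EN replicate 1 and -0.10 with implied totals. MiR-211-5p made up 0.536 ± 0.177 percent of both rows in EC libraries and 0.565 ± 0.207 percent in EN libraries (SD, n = 3; exact permutation test, two-sided, p = 0.8). The share ranged from 0.382 percent in EN replicate 2 to 0.790 percent in EN replicate 1, and the counting intervals of those libraries, 0.352 to 0.414 and 0.749 to 0.832 percent, did not overlap. How many of the miR-211-5p reads came from miR-204-5p by the single differing base was not tested. The star arm miR-204-3p had only 3 to 15 counts in a library, against 115080.0 to 223563 counts of miR-204-5p, and its log2 fold change of -0.58 (SE 0.51) did not pass (adjusted p = 0.581).

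MiR-218a-5p, which both Slit hairpins can give, measured 10015, 9710.1 and 8458 CPM in EC and 9115, 10780.0 and 12365 CPM in EN. The groups overlapped, and the log2 fold change of 0.19 (SE 0.13, adjusted p = 0.448) became -0.14 with implied totals. MiR-218a-1-3p, the arm specific to the Slit2 hairpin, measured 22.2, 21.1 and 23.8 CPM in EC and 15.2, 24.5 and 25.6 CPM in EN. Here EN replicate 1 stood below the other 5 libraries, and the log2 fold change was -0.04 (SE 0.22, adjusted p = 0.926). Without EN replicate 1 it was 0.16, without EC replicate 3 0.0127, and without the rows of predicted miRNAs 0.0328. The arm specific to the Slit3 hairpin was not analysed here, so the copies could not be compared.

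The antisense row miR-218b measured 90.3, 99.96 and 77.6 CPM in EC and 119, 131 and 127.5 CPM in EN. No EN library reached down to an EC library. The log2 fold change of 0.49 (SE 0.15) did not pass edgeR's test (adjusted p = 0.104) but passed DESeq2 (adjusted p = 0.0372), and it was 0.16 with implied totals. As a share of its sum with miR-218a-5p it was 0.894, 1.02 and 0.909 percent in EC and 1.29, 1.201 and 1.02 percent in EN. The EN shares were all higher, though EN replicate 3 exceeded EC replicate 2 by less than the counting intervals of 0.940 to 1.11 and 0.941 to 1.10 percent. The exact permutation test (two-sided) again gave its smallest possible p, 0.1. With both rows summed, the log2 fold change was 0.20 (SE 0.13, adjusted p = 0.437), hardly different from that of miR-218a-5p alone.

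**Figure D4:**
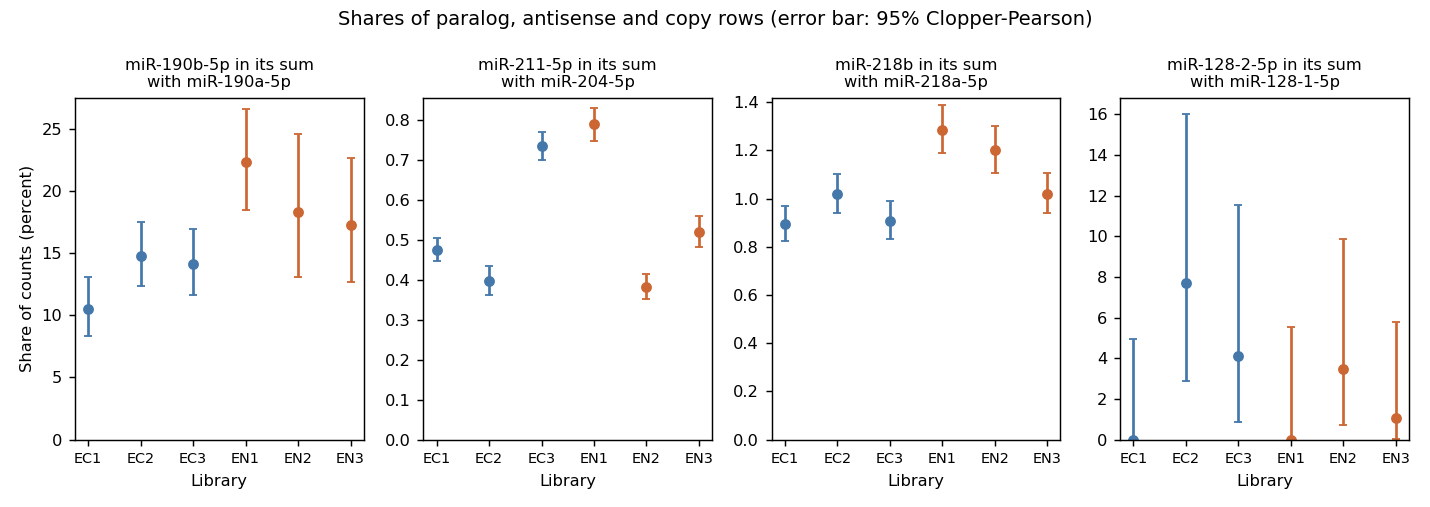
Share of counts, in percent, taken by miR-190b-5p, miR-211-5p, miR-218b and miR-128-2-5p in the sum with the partner row named above each panel, for the 3 EC and 3 EN libraries, with 95% Clopper-Pearson intervals as error bars. The EN shares of miR-190b-5p (17.2 to 22.3 percent) lie above those of EC (10.5 to 14.8 percent), while those of miR-211-5p overlap.

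Arm use was compared as the 5p to 3p ratio of a library, which does not depend on its scaling. For miR-139, miR-153 and miR-190a both arms come from 1 hairpin, whereas miR-128-3p and miR-218a-5p can come from both copies. None of the 5 pairs with enough counts in both arms passed limma's test, where 4.62 percent of 130 pairs passed. An unadjusted p under 0.05 was found in 1 of the 5 pairs and in 26 of all 130, the same share. That pair was miR-190a, with log2 ratios of 1.04, 1.06 and 0.88 in EC and 0.60, 0.39 and 0.53 in EN. The ratio was lower in each EN library, by 0.49 (SE 0.14), with an adjusted p of 0.166 by limma. In counts, the 3p arm took 33.4 ± 1.58 percent of the hairpin in EC libraries and 41.3 ± 1.82 percent in EN libraries (SD, n = 3). For miR-139 the difference in log2 ratio was -0.05 (SE 0.33), for miR-128-1 -0.11 (SE 0.24), for miR-153 0.11 (SE 0.28) and for miR-218a-1 0.26 (SE 0.20), with adjusted p of 0.494 to 0.941. The signs for miR-139, miR-128-1 and miR-153 turned when single libraries were left out. Arms were used very unequally at miR-204, whose 3p arm made up 0.00221 to 0.0113 percent of the counts, and most evenly at miR-190a.

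**Figure D5:**
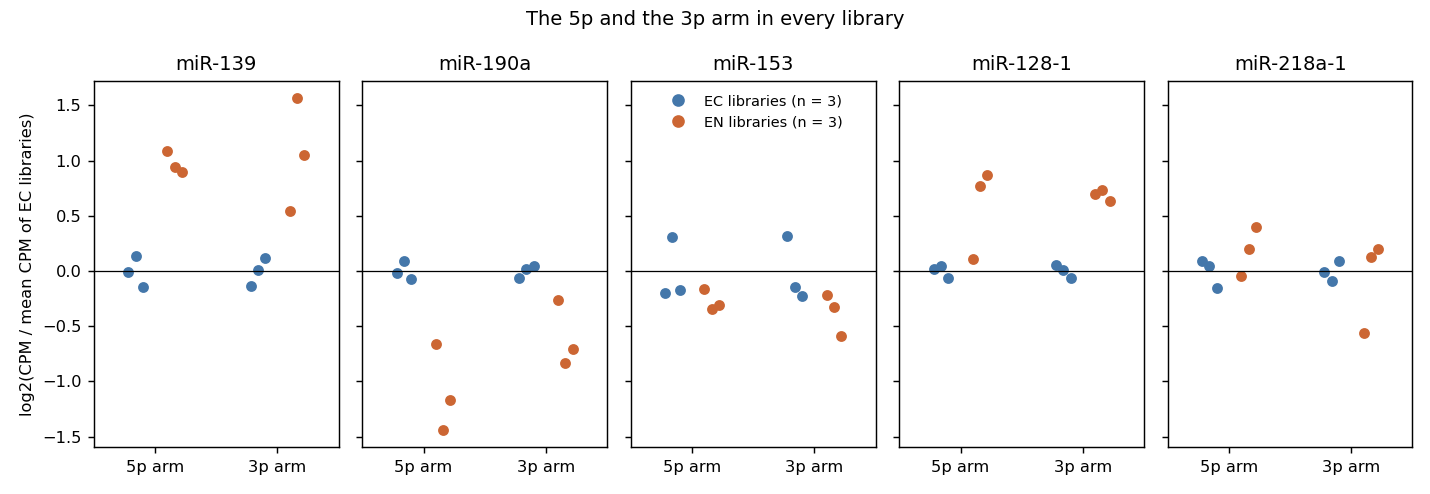
Level of the 5p and the 3p arm of 5 pairs in each library, as log2 of CPM over the mean of the EC libraries, where 0 is the EC mean; the 3p arm under miR-128-1 and the 5p arm under miR-218a-1 are shared with the other copy. Both arms of miR-139 lie above 0 in the 3 EN libraries and both arms of miR-190a lie below 0.

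Other miRNAs known to lie in introns of protein-coding genes gave 55 rows, of which 46 were tested. The RefSeq table held 49 of the rows and placed 48 inside a protein-coding gene. None of the 46 passed edgeR's test as higher. An unadjusted p under 0.05 was found for 4 rows with a positive and 10 with a negative fold change. Such counts were not made over all rows. Limma-voom called 0 higher and 4 lower, beside 12 and 11 over all rows. DESeq2 called 2 higher and 7 lower, beside 39 and 49 over all rows. The log2 fold change was positive in 15 of the 46 and negative in 31. The EC and EN values did not overlap in 19, 6 with EN above and 13 with EN below, against 29.6 percent of all tested rows. The median log2 fold change was -0.20, beside 0.19 for the rows described above. The edgeR test was passed by 4 lower rows of the 46, where 1.91 percent of all 628 tested rows were called lower. The 4 were miR-28-5p of the Lpp gene at -0.60 (SE 0.10), miR-106b-5p of the replication gene Mcm7 at -0.85 (SE 0.14), miR-338-3p of the kinase gene Aatk at -0.85 (SE 0.17) and miR-126a-5p of the endothelial gene Egfl7 at -0.86 (SE 0.17). The other arms of these hairpins did not pass edgeR's test, and miR-28-3p had a positive log2 fold change of 0.72 (adjusted p = 0.0534). MiR-126a-3p stood at 0.07 (adjusted p = 0.731), miR-106b-3p at -0.50 (0.253) and miR-338-5p at -0.21 (0.304). For miR-338-3p, another miRNA gene, Mir3065, lies at the same place, and at miR-126a-5p the annotation has 2 miRNA genes that overlap. The most abundant of the list, miR-26a-5p of Ctdspl, had 30413 ± 2385 CPM for EC and 25074 ± 2099 CPM for EN (SD, n = 3), without passing (adjusted p = 0.141). MiR-149-5p of the proteoglycan gene Gpc1 stood at 11351 ± 1190.5 and 12024 ± 351 CPM, miR-140-5p of the ubiquitin ligase gene Wwp2 at 6753 ± 607 and 5392 ± 565 CPM, and miR-151-5p at 3744 ± 137 and 2974 ± 166 CPM, without passing. With implied totals 11 of these 46 rows were lower and 0 higher, beside 88 lower and 13 higher of all 619 rows tested in that setting. An unadjusted p under 0.05 was then found for 1 row with a positive and 22 with a negative fold change.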

How the data were processed

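Small RNA of 6 PC12 libraries, 3 per group, was compared. Total RNA was extracted with Trizol and made into libraries with a TruSeq RNA kit, per the labels' protocols. The authors deposited whole-number read counts per mature miRNA and, beside each count, an RPM value scaled to a library total, plus group means of both: a mean signal of counts and a mean RPM. The submitters' processing notes name HISAT2 2.0.5 and the build Rnor 6.0. For the counting program, the strand rule and reads with several matches, nothing is stated in those sources. Totals implied by RPM reproduced each RPM value within 0.00083.

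Counts were filtered by filterByExpr, scaled by TMM and tested with edgeR 4.0.16 (R 4.3.3, robust quasi-likelihood F test, Benjamini-Hochberg over 628 rows, threshold 0.05). SE is the absolute log2 fold change over the square root of F. Ratios of 5p to 3p counts, each plus 1, on the log2 scale, for hairpins whose arms both averaged at least 20 counts, were tested with limma 3.58.1. Shares of counts were tested by exact permutation (scipy 1.17.1). Tests were checked on simulated data. Libraries with equal numbers had deviations from the group means that correlated at r = 0.0864, -0.0393 and 0.0146, so no replicate block was used. Libraries of a group differed by more than counting noise (chi-square per degree of freedom of 204 to 700.0).

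Members and lists were chosen with earlier results of these data known. Named were all rows of the rule, by library where they had a mean of 10 CPM or more, and of the other intronic miRNAs those that passed and the 4 of highest level. Alternatives were RLE factors, no factors, implied totals, no low-count filter, a floor of 10 CPM on the mean, limma-voom, DESeq2 1.42.0, leaving out single libraries, a block for the replicate number, known names only, and a table lacking its 5 most abundant rows. Sequences, genes and hosts came from RefSeq tables of GRCr8, where hosts were found by overlap of gene coordinates.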

Additional observations from a re-analysis of the deposited data

How the results depend on the processing

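The 4 calls among the 16 tested rows kept their direction in all alternatives. Their number stayed at 4 with RLE factors, no factors, a mean of 10 CPM, limma-voom, known rows only and without the 5 most abundant miRNAs, was 3 with no filter (miR-598-3p lost), 3 with implied totals (miR-139-5p, miR-190a-5p and miR-190a-3p) and 5 with DESeq2 (miR-218b added), and ranged from 0 to 5 without 1 library. With the replicate block it was 0, and 7 of the 16 had an unadjusted p under 0.05 by edgeR. The fits without EC replicate 3, EN replicate 2 or EN replicate 3 gave 0 calls among them, with 6, 7 and 7 rows at an unadjusted p under 0.05. These unadjusted counts were not made over all rows, so no background share stands beside them and nothing is read from them. Calls over all rows were 25, against 44 with no filter, 88 with DESeq2, 101 with implied totals (13 higher, 88 lower), 2 with the replicate block and 2 to 39 without 1 library. The labels do not say that equal numbers mark a pair.

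Arm use calls were 6, 0 with the replicate block (19 pairs at an unadjusted p under 0.05 by limma) and 0 to 12 without 1 library. Reversals met only rows that had not passed. Implied totals lower the log2 fold changes, since miRNA counts were a smaller part of those totals in each EN library than in each EC library. With them, the log2 fold changes became -0.13 for miR-204-5p and for its sum with miR-211-5p. They became -0.10 for miR-211-5p, and -0.14 for miR-218a-5p and for its sum with miR-218b. With known rows only, miR-218a-1-3p became 0.0328. Without 1 library, values ranged from -0.0127 to 0.37 for miR-204-5p, -0.0142 to 0.37 for its sum with miR-211-5p, -0.14 to 0.71 for miR-211-5p and -0.18 to 0.16 for miR-218a-1-3p. The arm ratio differences then ranged from -0.28 to 0.13 for miR-128-1, -0.36 to 0.0111 for miR-139 and -0.15 to 0.33 for miR-153. Other causes of these shifts were not tested. Depth limits miR-139-3p, miR-204-3p, miR-598-5p, miR-190b-3p and miR-128-2-5p, each with at most 33 counts in a library.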
